A study of Homo sapiens with 5 samples.

Results

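VEGFA, VEGFC, ADM, ANGPTL4, EDN1, PDGFB and PGF encode secreted factors that act on blood and lymph vessels. Peaks of Nrf2 and HIF1α were collected at these 7 genes, out of 20149 protein-coding genes, by 1 rule. A peak was taken when at least 1 bp of it lay in the gene or within 50 kb of it on hg19, with gene positions from GENCODE release 44. Of 29781 peaks in the 4 lists, 44 met this rule. The chromatin came from BEAS-2B cells, an immortalized line of human bronchial epithelial cells. All cells were starved of serum overnight and cultured for a further 6 h without inorganic arsenic (iAs, the control cells) or with 1 μM iAs. Each condition was immunoprecipitated with an antibody to Nrf2 and with one to HIF1α, which gave 4 ChIP libraries, 1 for each antibody and condition. Nothing below therefore has a replicate check, no difference between conditions was tested, and the cells are a single line. The study's methods and the sample labels name different suppliers for the antibodies. The lists held 3204 (control) and 7743 (iAs) Nrf2 peaks and 6008 (control) and 12826 (iAs) HIF1α peaks. They give where a peak starts and ends but no height, and the read depth is unknown, so peaks are described by presence, place and width.

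HIF1α is the oxygen-regulated subunit of hypoxia-inducible factor 1. It pairs with ARNT and binds the hypoxia response element, whose core is ACGTG or GCGTG. Nrf2 is the main transcription factor of the oxidative stress response. Keap1 holds it back until oxidants or electrophiles such as arsenicals modify Keap1, and it then pairs with small MAF proteins on the antioxidant response element, whose core is TGACNNNGC. This element can contain TGACTCA, the site of the AP-1 factors, so that TGACTCAGC matches both. VEGFA, the leading growth factor for blood vessels, is the classical angiogenic target of HIF1α. ADM and ANGPTL4 are also well-known hypoxia-inducible genes. Adrenomedullin, made from ADM, widens vessels and supports lymph vessels, and angiopoietin-like 4 inhibits lipoprotein lipase and acts on the endothelial barrier.

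The 44 peaks fell on 29 distinct places, and most of these had a peak of 1 factor only, often far from the gene. Places were not counted over the whole lists, where 14.7% of the Nrf2 peaks with iAs overlapped a HIF1α peak with iAs. Within 1 kb of the transcription start site (TSS), HIF1α had peaks at VEGFA, ADM and PDGFB with iAs and not in control cells. The same pattern was found at 27.7% of all protein-coding genes. At a few other places, peaks of both factors overlapped, in the same condition or across conditions. The sequences of some of those places are given first. Positions below are from the TSS of the canonical transcript in the direction of transcription, with negative values upstream. Sequences are from hg19 on the strand of the gene, 5′ to 3′, and capitals mark every match, on either strand, to the hypoxia response core, the AP-1 type site and the antioxidant response core just given.

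The place just downstream of ADM was the only one of 29 distinct places at the 7 genes with a peak in all 4 libraries. How often such a place occurs over the whole lists was not counted. The part common to the 4 peaks spanned 545 bp (chr11:10329318-10329862) and held 8 motif matches. The stretch shown, chr11:10329533-10329781 on the plus strand, lies 2913 to 3161 bp from the TSS and holds 7 of them. It is shown because a TGACTCAGC, read by both the antioxidant and the AP-1 type motif, stands among hypoxia response cores.
ADM downstream: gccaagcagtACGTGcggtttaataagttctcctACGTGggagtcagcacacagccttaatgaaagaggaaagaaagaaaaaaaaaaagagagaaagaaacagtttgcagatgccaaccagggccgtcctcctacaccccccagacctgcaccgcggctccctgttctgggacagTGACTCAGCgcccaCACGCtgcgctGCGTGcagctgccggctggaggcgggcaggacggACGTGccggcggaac

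Peaks of both factors also overlapped upstream of ANGPTL4, upstream of PDGFB and in intron 1 of PDGFB, but not always in the same condition. At ANGPTL4, the Nrf2 peak was found with iAs only and the HIF1α peak in control cells only. Upstream of PDGFB, Nrf2 had a peak in both conditions and HIF1α in control cells only. In intron 1 of PDGFB, the overlapping peaks of both factors were found with iAs only. The stretches are chr19:8426986-8427104 on the plus strand, and chr22:39679638-39679759 and chr22:39638850-39638978, both on the minus strand. They are shown because they differ in their matches. The TSS nearest to the second is not that of PDGFB but that of RPL3, a ribosomal protein gene. The first holds hypoxia, antioxidant and AP-1 type matches, the second an AP-1 type site and a hypoxia response core, and the third hypoxia response cores alone.
ANGPTL4 upstream: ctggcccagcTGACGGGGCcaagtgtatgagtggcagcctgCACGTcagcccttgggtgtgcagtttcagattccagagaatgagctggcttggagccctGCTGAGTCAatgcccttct
PDGFB upstream: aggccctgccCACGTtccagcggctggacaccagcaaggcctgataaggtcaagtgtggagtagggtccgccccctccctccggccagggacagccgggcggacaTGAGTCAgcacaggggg
PDGFB intron 1: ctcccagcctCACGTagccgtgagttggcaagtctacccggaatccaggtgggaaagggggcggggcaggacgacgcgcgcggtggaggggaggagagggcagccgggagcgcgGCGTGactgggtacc

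Across the 7 loci, 4 Nrf2 peaks were found without iAs and 9 after iAs, and for HIF1α the numbers were 11 and 20. The lists with iAs were also longer. When each list was cut to the 3204 widest peaks, the length of the shortest, Nrf2 had 4 and 4 peaks and HIF1α had 6 and 4. The rise was then lost for Nrf2 and turned for HIF1α. This cut drops narrow peaks, and more of them from the longer lists, and the reason for the rise was not tested. Nrf2 peaks in control cells were found at 2 of the 7 genes (ADM and PDGFB), beside 20.0% of all protein-coding genes under the same rule. With iAs, Nrf2 peaks were found at 4 genes (VEGFC, ADM, ANGPTL4 and PDGFB), beside 35.0% of all genes. HIF1α peaks were found at the same 5 genes in both conditions (VEGFA, ADM, ANGPTL4, PDGFB and PGF), beside 45.5% of all genes in control cells and 68.6% with iAs. This held for the distance of 50 kb, whereas within 10 kb of the gene 2 genes had a HIF1α peak in control cells and 4 with iAs. EDN1 had no peak in any library. With 7 genes, 1 gene is worth 14.3 percentage points, and the share with a HIF1α peak in iAs-treated cells, 71.4%, was close to that of all genes. The median number of peaks per gene over the 7 was 0 and 1 for Nrf2 and 1 and 3 for HIF1α, without and with iAs. Over all protein-coding genes these medians were 0, 0, 0 and 1.

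**Figure D1:**
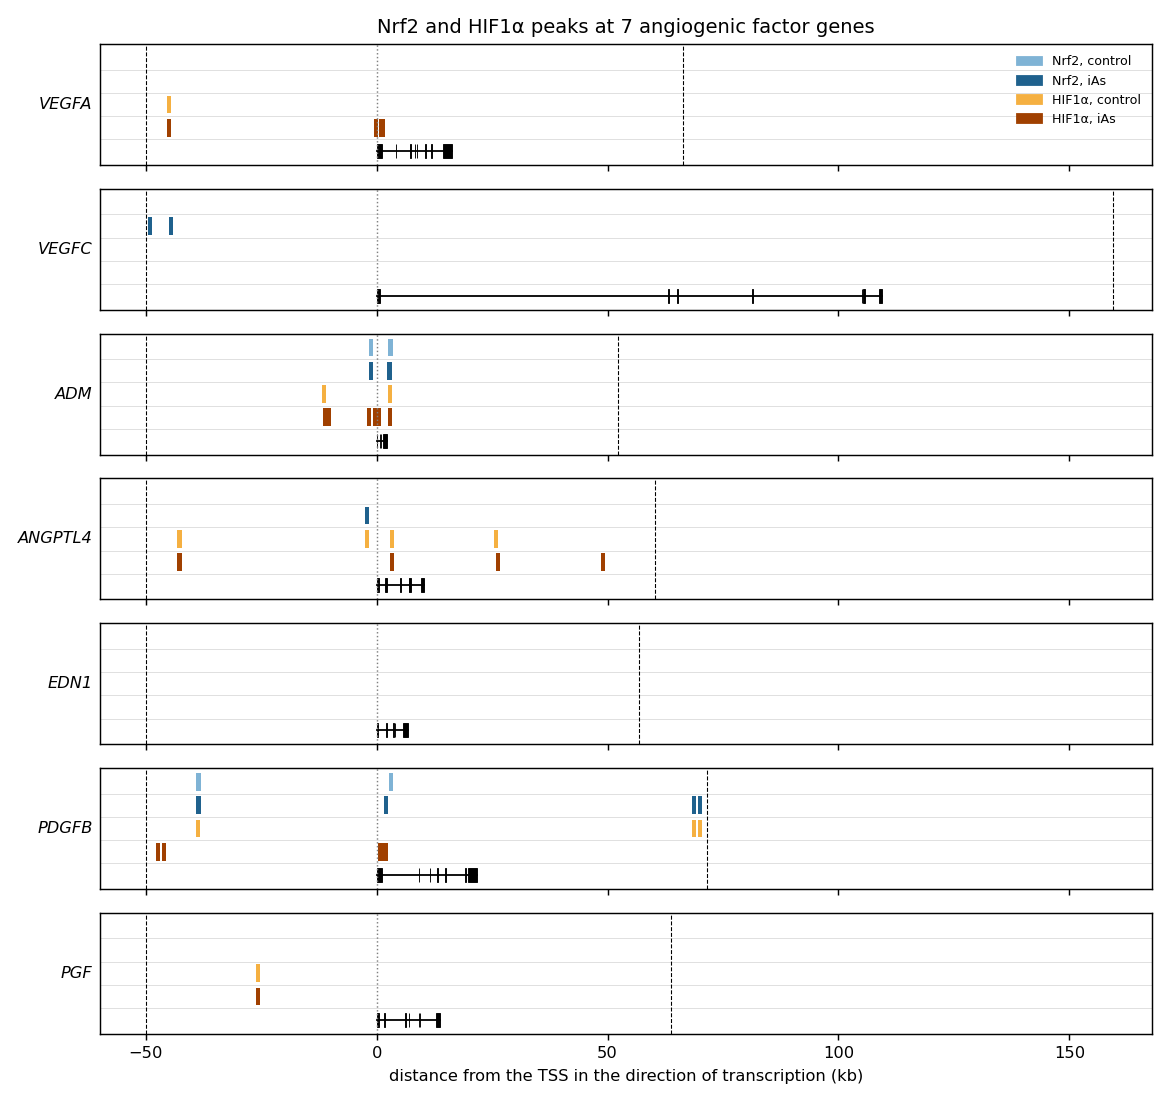
Peaks of the 4 libraries (coloured boxes, 1 lane per library) at the 7 genes, by distance from the TSS in kb; exons are black boxes on the lowest line, dashed lines mark 50 kb on either side of the canonical transcript, and narrow peaks are drawn wider than they are so that they can be seen. PDGFB has the most peaks (15), followed by ADM (12) and ANGPTL4 (9), and EDN1 has none.

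Peaks within 1 kb of the TSS were fewer. In control cells none of the 7 genes had one for either factor, beside 2.32% of all genes for Nrf2 and 16.7% for HIF1α. With iAs, an Nrf2 peak reached within 1 kb of the TSS at ADM alone, beside 5.18% of all genes. HIF1α peaks with iAs lay there at 3 genes, VEGFA, ADM and PDGFB, which is 42.9% of the 7 and close to the 42.6% of all genes. Of all genes, 27.7% had a HIF1α peak within 1 kb of the TSS with iAs only and no control peak there. The same held for VEGFA, ADM and PDGFB, 3 of the 7. In lists cut to equal length, HIF1α with iAs had a peak within 1 kb of the TSS at 1 gene instead of 3, and at a distance of 3 kb the genes with a HIF1α peak were 2 in control cells and 3 with iAs.

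**Figure D2:**
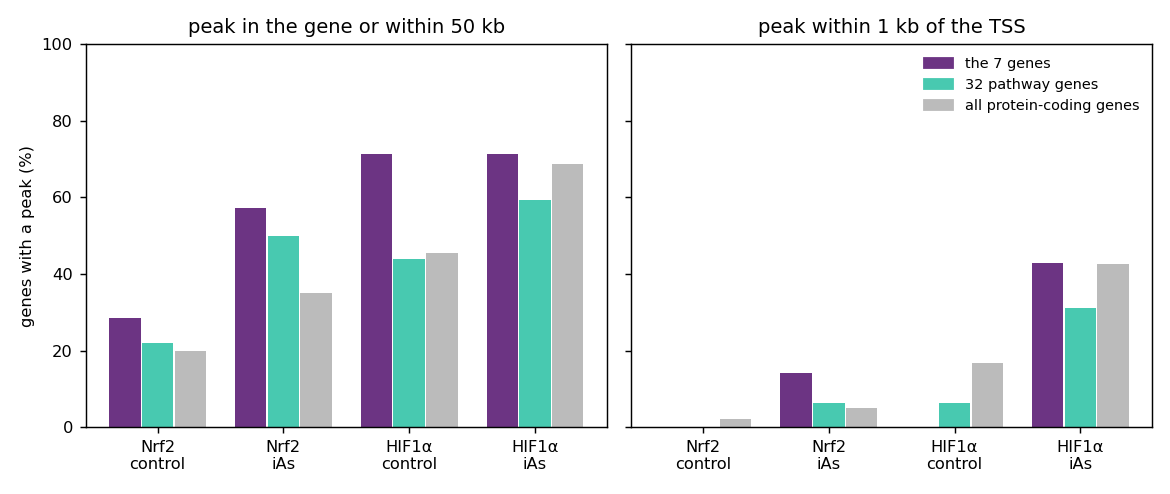
Share of genes (%, y axis) with a peak in the gene or within 50 kb (left) and within 1 kb of the TSS (right) in each library, for the 7 genes, 32 genes of the same pathways and all protein-coding genes. For HIF1α with iAs, the 7 genes and all genes are level near the TSS, at 42.9% and 42.6%.

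In VEGFA and within 50 kb of it, all peaks were HIF1α peaks. In control cells there was 1 peak, and it lay far upstream at -44.9 kb (chr6:43692881-43693161, 281 bp wide), where the nearest TSS is that of MRPS18A, a mitochondrial ribosomal protein gene, at -37.5 kb. With iAs it was found again at 188 bp (chr6:43692906-43693093), the narrowest width in that list. Beside it, 2 peaks were present near the VEGFA TSS with iAs only. The first spanned 198 bp upstream of the TSS (chr6:43737617-43737814, -331 to -134 bp), and 7.79% of the peaks of the library were narrower. The other spanned 1264 bp (chr6:43738409-43739672, 461 to 1724 bp downstream of the TSS), and 98.8% of the peaks of the library were narrower. It was the widest of the 44 peaks. Its centre lies in exon 1, in sequence annotated as coding in 17 of the 18 basic transcripts, and it runs past the end of exon 1 at 1101 bp into intron 1.

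Hypoxia response cores lay under both VEGFA peaks near the TSS. The promoter peak held 1 ACGTG and 1 GCGTG, and the exon 1 peak held 8 cores in all. The promoter ACGTG, on the strand opposite to the gene at -311 bp, and the first ACGTG of the wide peak, at 1163 bp in intron 1, are shown with the bases around them.
VEGFA promoter, chr6:43737635-43737639 in capitals: aggccctgtccgCACGTaacctcactttc
VEGFA intron 1, chr6:43739109-43739113 in capitals: tcccggctggggACGTGcgtgcgagcgcg
The hypoxia response element long known from the VEGFA promoter, TACGTGGG, was found at chr6:43736971-43736978, -977 to -970 bp from the TSS. It is shown because no library had a peak on it. The nearest HIF1α peak with iAs began 639 bp away, and the nearest one in control cells 43810 bp away.
VEGFA known element: tccacagtgcaTACGTGGGctccaacaggt
No Nrf2 peak lay within 50 kb of VEGFA. The nearest in control cells was at 272 kb from the TSS, where the nearest TSS is that of MRPL14. With iAs it was at 68.5 kb, just outside the distance used, and the nearest TSS to it is that of VEGFA itself. Within 100 kb VEGFA counts too, and 5 of the 7 genes had an Nrf2 peak with iAs.

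ADM had peaks in every library. Nrf2 had 2 peaks in control cells, and both were found again with iAs and were wider there. The upstream Nrf2 peak spanned 210 bp without iAs (chr11:10325319-10325528) and 460 bp in treated cells (chr11:10325231-10325690), which is 2.19 times the width. In both conditions it held an ACGTG at -1188 bp and a GCGTG at -1179 bp, and no match to TGACTCA or TGACNNNGC. The wider interval with iAs also held a GCGTG at -1084 bp and at -1057 bp. The Nrf2 peak downstream of the gene spanned 545 bp without iAs (chr11:10329318-10329862) and 1094 bp in iAs-treated cells (chr11:10328806-10329899), 2.01 times the width. Nrf2 peaks widened over the whole list as well: over 2833 control peaks that overlapped a single peak with iAs and were its only partner, the median ratio was 1.63. The HIF1α peak at the downstream place spanned 678 bp without iAs (chr11:10329214-10329891) and 881 bp in treated cells (chr11:10329005-10329885). In the HIF1α list of control cells, 98.5% of the peaks were narrower. The TGACTCAGC shown above is centred at 3092 bp from the TSS, and cores of the hypoxia response element flank it at 2949 and 3104 bp.

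HIF1α had 6 peaks at ADM with iAs and 2 in control cells. Near the start of the gene, 3 of the 6 were present with iAs only. They lay at -1727 bp (chr11:10324672-10325115, 444 bp wide), at -386 bp (chr11:10326133-10326336, 204 bp) and at 490 bp in intron 1 (chr11:10326862-10327359, 498 bp). The intron 1 peak held 2 hypoxia response cores, and the other 2 held none. Beside these and the downstream place, HIF1α peaks lay at the TSS of the neighbouring gene SBF2, a regulator of membrane traffic. There a control peak of 380 bp (chr11:10314988-10315367) was matched by a peak of 817 bp with iAs (chr11:10315124-10315940), 2.15 times the width, and a further peak of 368 bp was seen with iAs only (chr11:10316115-10316482). The median ratio over 3045 such pairs of HIF1α peaks was 1.44.

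**Figure D3:**
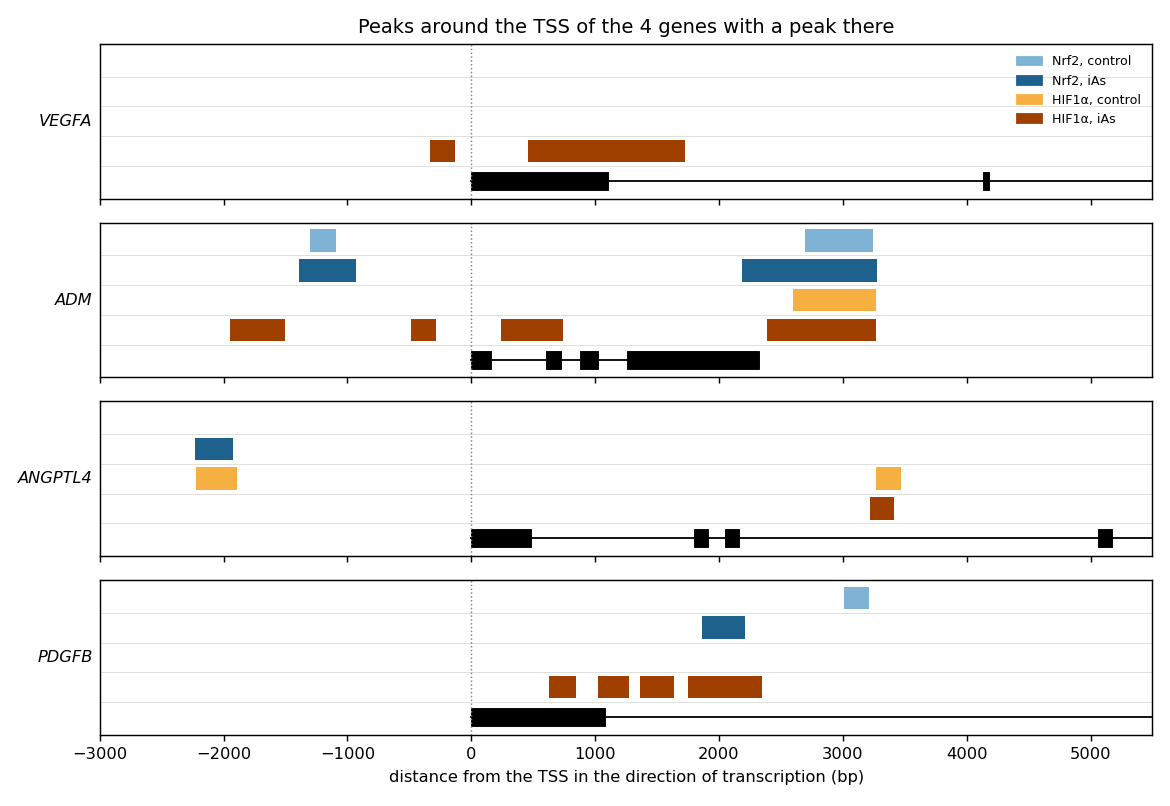
Peaks around the TSS of VEGFA, ADM, ANGPTL4 and PDGFB, drawn to scale by distance from the TSS in bp, with 1 lane per library and exons as black boxes. HIF1α peaks close to the TSS of VEGFA, ADM and PDGFB appear in the lane of iAs-treated cells alone, and all 4 lanes hold a box downstream of ADM.

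ANGPTL4 had no peak within 1 kb of its TSS, and HIF1α had the same number of peaks there in both conditions, 4 and 4. Upstream of the gene, an Nrf2 peak of 311 bp was found with iAs only, at -2076 bp (chr19:8426808-8427118). It lay on a HIF1α peak of 330 bp that was found in control cells only, at -2057 bp (chr19:8426818-8427147). In intron 3, HIF1α peaks of 203 bp without iAs (chr19:8432309-8432511) and 194 bp after iAs (chr19:8432262-8432455) overlapped, and each held 1 hypoxia response core. The other HIF1α peaks belonged by distance to other genes. Peaks of 252 bp (chr19:8386197-8386448) and, with iAs, 298 bp (chr19:8386180-8386477) lay at the TSS of RPS28, a ribosomal protein gene. A peak of 314 bp in control cells only (chr19:8454785-8455098) and one of 300 bp with iAs only (chr19:8455141-8455440) lay next to each other, without overlap, at the TSS of RAB11B, a GTPase of recycling endosomes. A peak of 191 bp with iAs only lay at the TSS of MARCHF2 (chr19:8478034-8478224).

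PDGFB encodes the B chain of platelet-derived growth factor, which recruits pericytes to new vessels. Its HIF1α peaks in the 2 conditions had no place in common. In control cells, all 3 were distant. A peak of 211 bp lay at -38.7 kb (chr22:39679594-39679804), and peaks of 192 bp and 262 bp lay downstream of the gene at 68.6 and 70.0 kb (chr22:39572258-39572449 and chr22:39570830-39571091). PDGFB has 2 basic transcripts, and peaks centred in exon 1 or intron 1 of the canonical one are centred upstream of the other. With iAs, 4 of the 6 HIF1α peaks stood in a row over exon 1 and intron 1 of the canonical transcript. They were 217 bp wide at 734 bp from the TSS in the 5′-UTR of exon 1 (chr22:39640145-39640361), 250 bp at 1148 bp (chr22:39639715-39639964), 270 bp at 1500 bp (chr22:39639353-39639622) and 605 bp at 2049 bp (chr22:39638636-39639240). The last 2 of the 6 lay at -46.0 and -47.3 kb and were 308 and 313 bp wide (chr22:39686828-39687135 and chr22:39688161-39688473), and RPL3 had the nearest TSS to both, at 28.6 and 27.3 kb.

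Nrf2 peaks of PDGFB shared places with both sets of HIF1α peaks. In intron 1, the Nrf2 peak with iAs (chr22:39638778-39639124, 347 bp wide, 2036 bp from the TSS) lay wholly inside the HIF1α peak of 605 bp. It overlapped no Nrf2 peak of control cells, and a control peak of 199 bp lay farther into intron 1 at 3109 bp (chr22:39637779-39637977). At -38.6 kb, Nrf2 had a peak of 402 bp in control cells (chr22:39679393-39679794) and of 784 bp with iAs (chr22:39679207-39679990), 1.95 times the width, and the HIF1α peak there was found in control cells only. RPL3 had the nearest TSS to all 3 of these peaks, at 35.9 to 36.0 kb. This place holds the PDGFB upstream sequence shown above. Downstream, Nrf2 peaks of 184 bp (chr22:39572225-39572408) and 398 bp (chr22:39570807-39571204) were found with iAs only, on the HIF1α peaks of control cells at 68.6 and 70.0 kb. The nearest TSS to both is that of CBX7, a Polycomb gene, at -22.3 to -23.7 kb. The wider of these places held TGACTCA, which reads as TGAGTCA on the strand of PDGFB and is shown here within chr22:39570938-39570964, and the narrower place held none of the motifs.
PDGFB downstream: tcccgggctgTGAGTCAgctcccagca

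The other 3 genes had few peaks or none. VEGFC, the growth factor of lymph vessels that signals through FLT4, had 2 Nrf2 peaks, both with iAs only and both far upstream, and no HIF1α peak. They were 329 bp wide at -44.5 kb (chr4:177758429-177758757) and 207 bp wide at -49.0 kb (chr4:177763023-177763229). Of the 9 Nrf2 peaks with iAs at the 7 genes, they had the smallest shares of G and C, 35.0% and 31.9%. The median of the 9 was 60.1% and that of the whole list 47.2%, and their rank in the list was not computed. The second held TGACTCA at -49014 bp, which reads as TGAGTCA on the strand of VEGFC, and a TGACNNNGC lay in the first at -44642 bp.
VEGFC upstream, chr4:177763087-177763093 in capitals: ctatttagtgaTGAGTCAgaatgactaac
The nearest HIF1α peaks were more than a megabase away, at 3460 kb in control cells and 3420 kb with iAs. PGF, placenta growth factor, a ligand of FLT1, had a HIF1α peak at -25.7 kb of 463 bp without iAs (chr14:75447735-75448197) and of 477 bp after iAs (chr14:75447723-75448199), a ratio of 1.03. The nearest TSS to it is that of EIF2B2, a translation factor subunit, at -21.7 kb. For EDN1, the precursor gene of the vasoconstrictor endothelin-1, the nearest peaks lay upstream at -153 kb for Nrf2 in both conditions and at -276 and -279 kb for HIF1α in control and iAs-treated cells. HIVEP1 had the nearest TSS to each of them.

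Of the 44 peaks, 23 had the TSS of one of the 7 genes as the nearest protein-coding TSS. For HIF1α in control cells this held for 3 of 11 peaks, and with iAs for 11 of 20, where over all protein-coding genes it held for 33.0% and 31.2% of the pairs of a gene and a peak in it or within 50 kb. PGF had no peak of this kind, and the counts for ADM, PDGFB, ANGPTL4, VEGFA and VEGFC were 9, 6, 4, 2 and 2. With iAs, 11 of the 20 HIF1α peaks were centred within 3.5 kb of the TSS of their gene, beside 3 of 11 in control cells. Over all such pairs the shares were 30.2% with iAs and 24.6% in control cells. Of the 11 peaks, 4 lay at ADM and 4 at PDGFB, and those at PDGFB were each less than 500 bp from the next. With intervals that close merged, the 20 HIF1α peaks with iAs became 16. The counts by distance and by nearest TSS were not repeated on merged lists, and the limit of 3.5 kb was not varied. The lists do not tie a peak to a gene, and which gene a distant peak serves was not tested.

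Of the 9 Nrf2 peaks of iAs-treated cells, 6 had no counterpart in control cells, beside 62.0% of that whole list. For HIF1α this was 14 of 20, beside 75.2% of the list. With intervals less than 500 bp apart merged, the 14 became 10 and the 20 became 16, and the share of the list was not counted in that way. In the other direction, 1 of 4 Nrf2 control peaks (in PDGFB intron 1) was absent with iAs, beside 5.37%, and 5 of 11 HIF1α control peaks were, beside 46.3%. Those 5 lay at ANGPTL4 (2) and PDGFB (3), and 4 of them overlapped an Nrf2 peak of iAs-treated cells, where 41.4% of all HIF1α peaks seen in control cells only did. With iAs, 2 of 9 Nrf2 peaks overlapped a HIF1α peak, downstream of ADM and in PDGFB intron 1, beside 14.7% of the list. In lists cut to equal length, 1 Nrf2 peak and 2 HIF1α peaks at the 7 genes were present with iAs only, and 1 place had peaks of both factors with iAs.

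**Figure D4:**
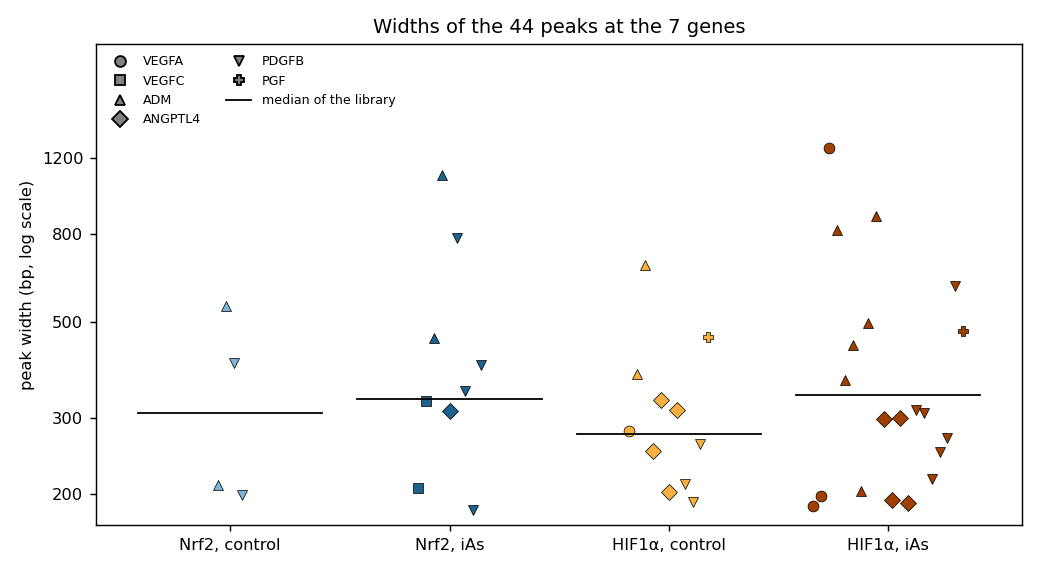
Width of each of the 44 peaks in bp (log scale) by library, with a symbol for each gene and a line at the median of all peaks of that library. The VEGFA exon 1 peak of 1264 bp is the widest and the PDGFB peak of 184 bp the narrowest, and the peaks downstream of ADM are the widest at these genes in the other 3 libraries.

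The widths at the 7 genes were spread around those of the whole lists. Their medians were 306 bp and 347 bp for Nrf2 and 281 bp and 304 bp for HIF1α, without and with iAs, where the medians of all peaks were 309, 333, 276 and 340 bp. Of the 6 pairs of HIF1α peaks found in both conditions, that at VEGFA was narrower with iAs at 0.669 of its control width, and 6.40% of all pairs had a smaller ratio. The others had ratios of 0.956 to 2.15.

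Hypoxia response cores were searched within 100 bp of each peak centre. They were found in 11 of the 20 HIF1α peaks with iAs and 6 of the 11 in control cells, beside 52.4% and 47.7% of all peaks of these lists. In windows of 201 bp moved by 5 kb, the shares were 25.3% and 23.8%. The same cores were found in 3 of 4 Nrf2 peaks in control cells and 4 of 9 with iAs, beside 24.9% and 26.0% of the lists. TGACTCA was found in 1 of 4 and 3 of 9 Nrf2 peaks, beside 47.8% and 38.3%, and TGACNNNGC in 1 of 4 and 1 of 9, beside 42.4% and 31.6%. Among HIF1α peaks, TGACTCA was found in 2 of 11 peaks in control cells and 0 of 20 with iAs, beside 14.5% and 2.39% of the lists, and TGACNNNGC in 1 of 11 and 2 of 20, beside 12.8% and 10.1%. At these genes the Nrf2 peaks were richer in G and C than the lists they came from, with medians of 58.5% in control cells and 60.1% with iAs beside 46.3% and 47.2%. The Nrf2 peaks at VEGFC went the other way, at 35% and 31.9%. HIF1α peaks were closer to theirs, with 62.1% and 67.0% beside 60.2% and 69.8%.

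At the 7 genes, a core near the TSS was common and mostly without a peak. Within 1 kb of the TSS, VEGFA and VEGFC had 8 cores each, ADM and PDGFB 7, ANGPTL4 6, and EDN1 and PGF 4. Over 20136 TSS windows of this size, the median was 5 and 95.5% held at least 1. HIF1α peaks with iAs covered 2 of the 8 cores at VEGFA and 2 of the 7 at ADM, and none of those at the other 5 genes. No other library covered any. The share of cores under a peak was not counted over all genes, so these counts have no background.

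The same search was made for 32 further genes of these pathways: 13 ligands, 14 receptors and 5 genes of processing enzymes or inhibitors. Peaks were found at 7 of them for Nrf2 in control cells, 16 with iAs, 14 for HIF1α in control cells and 19 with iAs. Under the same rule, the shares of all genes were 20.0%, 35.0%, 45.5% and 68.6%. With 32 genes, 2 genes are worth 6.25 percentage points. For Nrf2 the pathway genes were close to the share of all genes in control cells, at 21.9%, and above it with iAs, at 16 of the 32. For HIF1α they were close to it in control cells, at 43.8%, and below it with iAs, at 59.4%. Near the TSS, 0, 2, 2 and 10 of the 32 genes had a peak. These are 0%, 6.25%, 6.25% and 31.2%, beside 2.32%, 5.18%, 16.7% and 42.6% of all genes, so the shares for HIF1α were below those of all genes. Ligands with a HIF1α peak within 1 kb of the TSS in iAs-treated cells were VEGFB, PDGFA, ADM2 and HBEGF, and all these peaks were absent in control cells. At PDGFA there were 3 of them, at -895, -396 and 833 bp, 369, 455 and 376 bp wide. PDGFD had one in control cells only, 311 bp wide at 30 bp.

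Among the receptors, HIF1α peaks with iAs were found near the TSS of FLT1, a receptor of VEGFA and PGF (451 bp wide at 138 bp), of the co-receptors NRP1 and NRP2, and of PDGFRB, the receptor of PDGFB (307 bp wide at 73 bp). At PDGFRB an Nrf2 peak of 361 bp lay beside it at -305 bp, also with iAs only. KDR, the main VEGFA receptor of endothelium, and FLT4, the receptor of VEGFC, had no peak in any library. At THBS1, the gene of the angiogenesis inhibitor thrombospondin-1, HIF1α had a promoter peak in both conditions, with widths of 395 bp (control) and 935 bp (iAs), and Nrf2 one of 292 bp with iAs only. COL18A1, the source of the inhibitor endostatin, had a HIF1α peak of 263 bp at 764 bp with iAs only. In the plot of counts by gene, NRP1 had the most Nrf2 peaks, 6 in control cells and 10 with iAs.

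**Figure D5:**
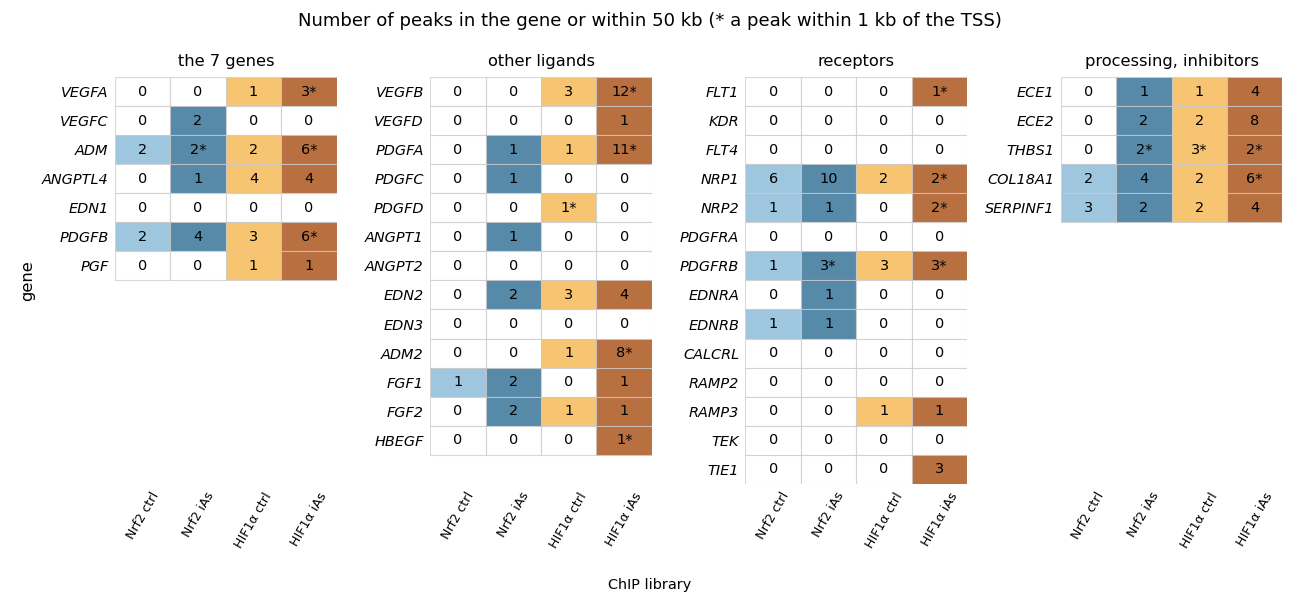
Number of peaks in each gene or within 50 kb of it in the 4 libraries (columns), for the 7 genes and for 32 other genes of the pathways by role; coloured cells hold at least 1 peak and an asterisk marks a peak within 1 kb of the TSS. Asterisks stand at 3 of the 7 genes and 10 of the 32 for HIF1α with iAs.

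By the presence or absence of a peak in the gene or within 50 kb in the 4 libraries, the 7 genes fell into 5 patterns. ADM and PDGFB, with peaks in all 4, shared their pattern with NRP1, PDGFRB, COL18A1 and SERPINF1 and with 12.9% of all genes. ANGPTL4 lacked Nrf2 in control cells alone, as did PDGFA, EDN2, FGF2, ECE1, ECE2, THBS1 and 8.98% of all genes. VEGFA and PGF had HIF1α peaks only, as did VEGFB, ADM2, RAMP3 and 20.1% of all genes. VEGFC had Nrf2 with iAs only, as did PDGFC, ANGPT1, EDNRA and 1.97% of all genes. EDN1 had none, as did ANGPT2, EDN3, KDR, FLT4, PDGFRA, CALCRL, RAMP2, TEK and 24.3% of all genes.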

How the data were processed

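Nrf2 and HIF1α ChIP-seq was done on BEAS-2B cells with or without iAs. The authors aligned reads to hg19 (BWA and MACS2 2.1.0 in the submitters' processing notes), down-sampled tags to the smallest sample, and called peaks with MACS or SICER; which caller made each list is not given in the sources used here. They deposited intervals in base positions, with no height, count or score, so no depth or interval of error can be given. The input library has no peak list. Starts were changed to 1-based positions. Lists were read as deposited with Python 3.11.15 and NumPy 2.4.6. Genes were 20149 protein-coding genes of GENCODE release 44 on GRCh37, each with its canonical TSS. Peaks that overlapped by at least 1 bp were counted as shared. Motif matches were counted, whatever the strand, up to 100 bp from the peak centre. Alternatives were other distances, TSS choices, overlaps and merging, the wider 50% of peaks, lists of equal size and whole-interval motifs. With 1 library per group no test was made. The scripts for overlap, position and motifs were first tested on simulated data. Every peak of the 7 genes is named. Of the 32 pathway genes those with a peak within 1 kb of the TSS or the pattern of one of the 7 are named, and other genes where they have the nearest TSS. The genes and lists were chosen with earlier results of these data known.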

Additional observations from a re-analysis of the deposited data

Results flagged for a closer look

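At 3 places the factors differed in the direction of change between control and iAs-treated cells: a HIF1α peak was present without iAs and absent with it, and the reverse held for an Nrf2 peak on the same bases. The Nrf2 peaks were 311 bp wide upstream of ANGPTL4, and 398 and 184 bp wide downstream of PDGFB at 70.0 and 68.6 kb. At 68.6 kb both peaks were narrow: 4.52% of Nrf2 peaks with iAs and 6.57% of HIF1α control peaks were narrower. Of all HIF1α peaks seen in control cells only, 41.4% overlapped an Nrf2 peak with iAs, with or without an Nrf2 control peak there. The difference was not tested, since each factor and condition has 1 library.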

How the results depend on the processing

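No peak has a replicate, and without heights weak peaks could not be set aside except by width. No paired analysis was possible because each antibody and condition has 1 library and the labels carry no replicate numbers. Of 104 alternative values, 66 stayed within 1.5 times the reported one and 38 did not. In the order Nrf2 control, Nrf2 with iAs, HIF1α control and HIF1α with iAs, the 4, 9, 11 and 20 peaks became 2, 5, 6 and 8 in the wider 50% of each list. With as many of the widest peaks as the shortest list holds, the last 3 became 4, 6 and 4, which left no rise for Nrf2 and fewer HIF1α peaks with iAs than without, and within 10 kb of the genes 4, 3 and 11. With nearest TSS only, HIF1α had 3 and 11. Genes with a peak fell from 4 to 2 for Nrf2 with iAs in the wider 50% and in lists of equal size, from 5 to 2 for HIF1α in control cells within 10 kb and by nearest TSS, and from 5 to 3 for HIF1α with iAs in lists of equal size. Genes with a peak near the TSS were 1, 3 and 2 in the first 3 libraries at 3 kb, 1 in the first with any basic TSS, and 1 for HIF1α with iAs in lists of equal size. The 6 Nrf2 peaks with iAs only became 2, 3 and 1, and the 14 of HIF1α 9, 5 and 2, within 10 kb, in the wider 50% and in lists of equal size, and 9 for HIF1α by nearest TSS. The 2 places of both factors with iAs became 1 in lists of equal size. In whole intervals, TGACTCA was found in 2, 5, 4 and 2 peaks, beside 58.4%, 51.5%, 18.0% and 4.38% of the lists. TGACNNNGC was found in 3, 4, 3 and 5, beside 51.3%, 44.2%, 18.0% and 18.9%.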
